A study of Mus musculus with 32 samples.

Results

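The genes described here encode the chains of the collagens, the triple-helical proteins that give most tissues their tensile strength. They were found by symbol, as Col, a number, the letter a and a number, and 44 of the 41388 genes in the tables fit. By the kind of collagen their chains build, 8 were fibrillar, 8 basement membrane, 7 cartilage and 21 other chains. Gene expression had been counted by RNA sequencing of the whole bone marrow of the femur, with 1 library per mouse and 4 mice in each of 8 groups. The DTRADQ mice carry a Cre-dependent diphtheria toxin receptor (DTR flox) together with adiponectin-Cre (ADQ Cre+). They were sampled without diphtheria toxin (DT) and after 1, 2 or 3 days of DT at 100 ng per mouse per day by intraperitoneal injection. The controls were Cre-negative littermates that also carry DTR flox, sampled without DT and after the same 1, 2 or 3 days of DT. All mice were C57BL/6 and 2 months old. The adiponectin promoter drives the Cre, so the receptor is meant to be made only in cells of the adiponectin lineage, and in whole marrow any RNA left from other tissues of the bone is counted too.

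Fibrillar collagens such as type I, a trimer of 2 chains from Col1a1 and 1 chain from Col1a2, form the ropes of bone and of connective tissue. Type IV collagen, mostly from Col4a1 and Col4a2, forms the sheet under endothelium and around vessels, and type II collagen, from Col2a1, is the main collagen of cartilage. In the marrow, bone-forming cells, reticular stromal cells, fibroblasts, vessel-wall cells and endothelial cells all make collagens. Before secretion the chains are hydroxylated and folded, and afterwards their end pieces are removed and the fibres are cross-linked.

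Of the 44 genes, 21 passed the filter on low counts and were tested: 7 of 8 fibrillar, 4 of 8 basement membrane, 3 of 7 cartilage and 7 of 21 other chains. These 21 are called expressed here. With a mean of at least 0.1 RPKM (reads per kilobase of gene, scaled for depth) in 1 or more groups as the definition, 22 were expressed, the added one being Col10a1, the type X chain of hypertrophic cartilage. At least 1 RPKM was reached by 9. Every member had at least 1 count somewhere. The 23 not tested were Col24a1 among the fibrillar chains, Col4a3, Col4a4, Col4a5 and Col4a6 among the basement membrane chains, Col9a1, Col9a2, Col9a3 and Col10a1 among the cartilage chains, and Col6a4, Col6a5, Col6a6, Col7a1, Col8a2, Col13a1, Col16a1, Col17a1, Col19a1, Col20a1, Col22a1, Col25a1, Col26a1 and Col28a1 among the others. The filter asks for 4 libraries above 0.706 CPM (counts scaled to the library total). Col15a1 exceeded that level in 6 libraries, 3 of them outside the DTRADQ day 3 group, so it entered the test only through the group where it is high and had to differ. Col2a1 exceeded it in 9 libraries, 5 of them outside that group.

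On the scale of level per length, in RPKM, Col1a1 stood highest of all 44 in each of the 8 groups. At day 3 of DT its mean was 27.7 RPKM in DTRADQ and 5.74 RPKM in controls. Col1a2 came second at 9.86 RPKM in DTRADQ and 3.54 RPKM in controls. The next places differed between the genotypes. In DTRADQ at day 3 the third place was held by Col8a1, a short-chain network-forming collagen of vessel walls, at 4.71 RPKM against 1.01 RPKM in controls, and the fourth by Col4a1 at 2.47 RPKM against 0.718 RPKM. In day 3 controls the third place belonged to Col5a1, a regulatory chain inside type I fibres, which stood at 0.933 RPKM in DTRADQ and 2.14 RPKM in controls.

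Library totals ran from 8.97 to 22.9 M counts. The levels below are CPM scaled by TMM (a factor per library from the bulk of its genes), and 2 control libraries without DT, numbers 4 and 3, had the lowest factors, 0.565 and 0.726, against 0.853 to 1.195 in the other 30. Adipoq, the gene whose promoter drives the Cre, spanned 0.264 to 0.600 CPM in DTRADQ on day 3 of DT, below the 32.1 to 54.3 CPM of controls. The summed CPM of 16 skeletal muscle genes varied between libraries, from 45.6 to 749 in DTRADQ and from 45.7 to 186 in controls. At day 3 it was 144, 749, 150 and 309 in DTRADQ and 83.7, 67.6, 54.9 and 49.7 in controls, so the genotypes did not overlap there. No sum of the DTRADQ libraries at day 1 or day 2 exceeded 86.2. The lane label is the same for both genotypes on each day but differs between day 3 and the other days. Changes from no DT, day 1 or day 2 to day 3 and lane therefore cannot be told apart.

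At day 3, at least 1 collagen chain of each of the 4 classes was higher in DTRADQ, and 2 chains were lower. The 13 chains that rose were Col1a1, Col1a2, Col3a1, Col5a2 and Col27a1 among the fibrillar, Col4a1, Col4a2 and Col15a1 among the basement membrane, Col2a1 among the cartilage, and Col6a3, Col8a1, Col12a1 and Col14a1 among the other chains, while Col5a1 and Col23a1 fell. A change is called where the adjusted p of edgeR's quasi-likelihood test over all genes is below 0.05. Thus 13 of the 21 tested members rose and 2 fell at day 3, where 8.80% of all 14527 tested genes rose and 14.1% fell. The 2 falls do not exceed the share of all genes, so their count is no result about collagens. Without Col15a1, which had to differ, 12 of 20 rose, with a median log2 change of 1.46. At day 2, 5 rose and 2 fell (4.40% and 4.12% of all genes). At day 1 none rose and 1 fell (0.888% and 3.02% of all genes), with 8 members at an unadjusted p under 0.05 in edgeR and 1 called by DESeq2. Without DT, 1 rose and 3 fell (12.7% and 14.4% of all genes). Fitted with the 2 groups without DT alone, edgeR called none of 13308 genes and no chain in that comparison (2940 genes and 3 chains at an unadjusted p under 0.05). The median log2 change of the 21 members, DTRADQ over control, was -0.12 without DT and then -0.25, 0.43 and 1.63 on days 1, 2 and 3, and that of all tested genes lay between -0.04 and -0.01 in these comparisons. At day 3, all 4 DTRADQ libraries lay above all 4 controls for 12 of the 21 members and below them for 2, against 14.9% and 20.4% of all tested genes. Since this is bulk RNA, fewer cells of a type and less RNA per cell cannot be told apart.

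**Figure D1:**
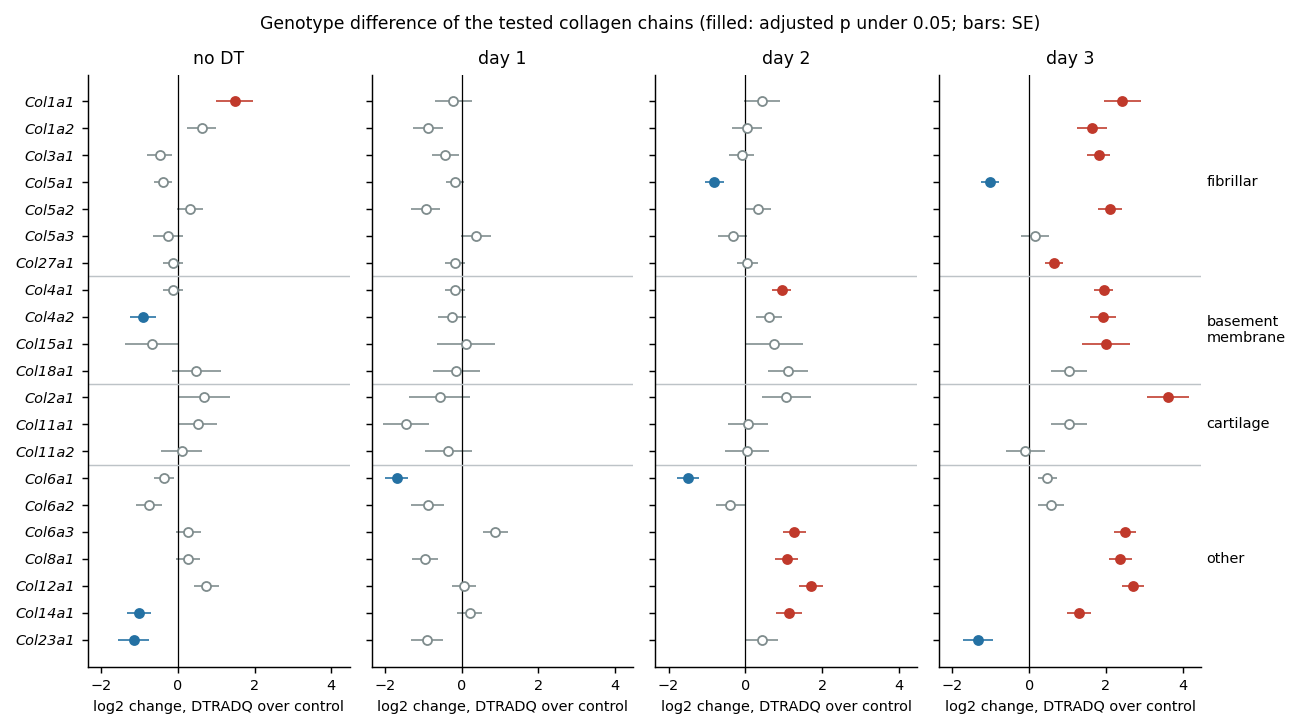
The log2 change of each of the 21 tested collagen chains, DTRADQ over control, without DT and at days 1, 2 and 3, with bars of 1 standard error and filled points where the change was called. Most chains lie near 0 or below it at day 1, and 13 filled points lie to the right at day 3, against 2 to the left.

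With the mean log level of the skeletal muscle genes added to the model as a covariate, 8 members rose and 2 fell at day 3. The 5 that were no longer called were Col1a1, Col1a2, Col14a1, Col15a1 and Col27a1, and their values stand with each gene. The muscle sums of the genotypes do not overlap at day 3, so this covariate also takes up part of the genotype difference. Of the 4 DTRADQ libraries of that day, the one with the highest muscle sum, number 2, was the highest in 0 of the 13 chains that rose. Library 4, with the next highest muscle sum (309 CPM), was the highest in all of these chains but Col12a1. The part of muscle in these changes was not tested.

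Col1a1 and Col1a2 together held a mean of 43.75% to 68.5% of the collagen counts of a group. Col1a1 (ENSMUSG00000001506, chromosome 11, 94936224 to 94953042, GRCm38) had 182, 171, 144 and 246 CPM in DTRADQ at day 3 and 42.1, 29.1, 29.9 and 36.9 CPM in controls. The lowest DTRADQ library was far above the highest control. Its means were 185.5 ± 43.2 CPM in DTRADQ and 34.5 ± 6.18 CPM in controls (SD, n = 4 each, as for every mean below), a log2 change of 2.43 (SE 0.49, adjusted p = 0.000446 in edgeR), or 5.38-fold. With the muscle covariate the log2 change was 1.23 (adjusted p = 0.0649). At day 1 the levels were 28.1 ± 6.02 CPM in DTRADQ and 32.7 ± 10.3 CPM in controls, and at day 2 they were 61.7 ± 30.0 and 45.7 ± 8.87 CPM, with log2 changes of -0.21 and 0.43 that did not pass (adjusted p = 0.868 and 0.609 in edgeR). The day 2 groups overlapped, since DTRADQ library 1 stood at 21.3 CPM, below every control, and the other 3 DTRADQ libraries at 56.5, 83.3 and 85.7 CPM.

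Col1a2 (chromosome 6, 4504814 to 4541543) had 120, 114, 87.5 and 166 CPM in DTRADQ at day 3 and 41.6, 35.2, 38.9 and 41.8 CPM in controls, again with no overlap. The log2 change was 1.63 (SE 0.39, adjusted p = 0.00246 in edgeR), and 0.63 with the muscle covariate (adjusted p = 0.264). At day 1 the 4 DTRADQ libraries, at 20.1, 21.0, 14.7 and 17.7 CPM, lay below the 4 controls, at 22.8, 31.5, 42.2 and 38.1 CPM. That difference had a log2 change of -0.87 and an adjusted p of 0.261 in edgeR, so it did not pass over all genes. At day 2 the genotypes averaged 46.0 ± 20.3 CPM in DTRADQ and 44.8 ± 5.36 CPM in controls, with a log2 change of 0.04 (adjusted p = 0.967 in edgeR).

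Col3a1, the type III chain that accompanies type I in soft tissue and reticular fibres, had 8.07, 8.09, 7.93 and 14.6 CPM in DTRADQ at day 3 and 2.65, 2.04, 2.98 and 3.40 CPM in controls. DTRADQ library 4 was the highest and the other 3 lay close together, all above the controls. The log2 change was 1.81 (SE 0.30, adjusted p = 4.84e-05 in edgeR), or 3.5-fold, and 1.18 with the muscle covariate (adjusted p = 0.0185). Col5a2, a type V chain that joins type I fibres, had 12.2, 13.8, 12.4 and 14.6 CPM in DTRADQ and 3.63, 3.12, 2.35 and 3.11 CPM in controls. The 4 DTRADQ libraries lay close together and all above the controls. The log2 change was 2.11 (SE 0.32, adjusted p = 9.31e-06 in edgeR), or 4.33-fold.

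The partner chain of type V, Col5a1 (chromosome 2, 27886425 to 28039514), moved the other way. It had 9.32, 8.37, 7.73 and 7.18 CPM in DTRADQ at day 3 and 11.6, 16.4, 16.9 and 21.3 CPM in controls. Each DTRADQ library was below each control, and the log2 change was -1.02 (SE 0.24, adjusted p = 0.0023 in edgeR). At day 2 it also fell, with 14.8, 8.30, 4.19 and 12.3 CPM in DTRADQ and 13.6, 15.7, 20.0 and 20.2 CPM in controls, a log2 change of -0.81 (adjusted p = 0.0342). There the groups overlapped in DTRADQ library 1, and the call was lost without DTRADQ library 2 or 3 or control library 3 or 4 (log2 changes of -0.74 to -0.55, adjusted p = 0.11 to 0.164). Col5a1 shares part of its span with Gm13372 on the other strand (529 counts over all libraries against 7865 for Col5a1), and since the strand setting of the counting is not given, its counts are uncertain to that extent. Col27a1, a fibrillar chain known from cartilage, rose least, with 2.07, 2.27, 1.92 and 2.69 CPM in DTRADQ and 1.37, 1.52, 1.17 and 1.64 CPM in controls. The groups were apart, but the log2 change of 0.65 (SE 0.24, adjusted p = 0.0465) was lost with the muscle covariate (log2 change 0.69, adjusted p = 0.12), in the fit without the filter (0.66, adjusted p = 0.139) and without any 1 of 6 libraries (DTRADQ 2 and 4 and all 4 controls, adjusted p = 0.06 to 0.147). Col5a3, the last fibrillar chain tested, had a log2 change of 0.14 (adjusted p = 0.823 in edgeR).

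**Figure D2:**
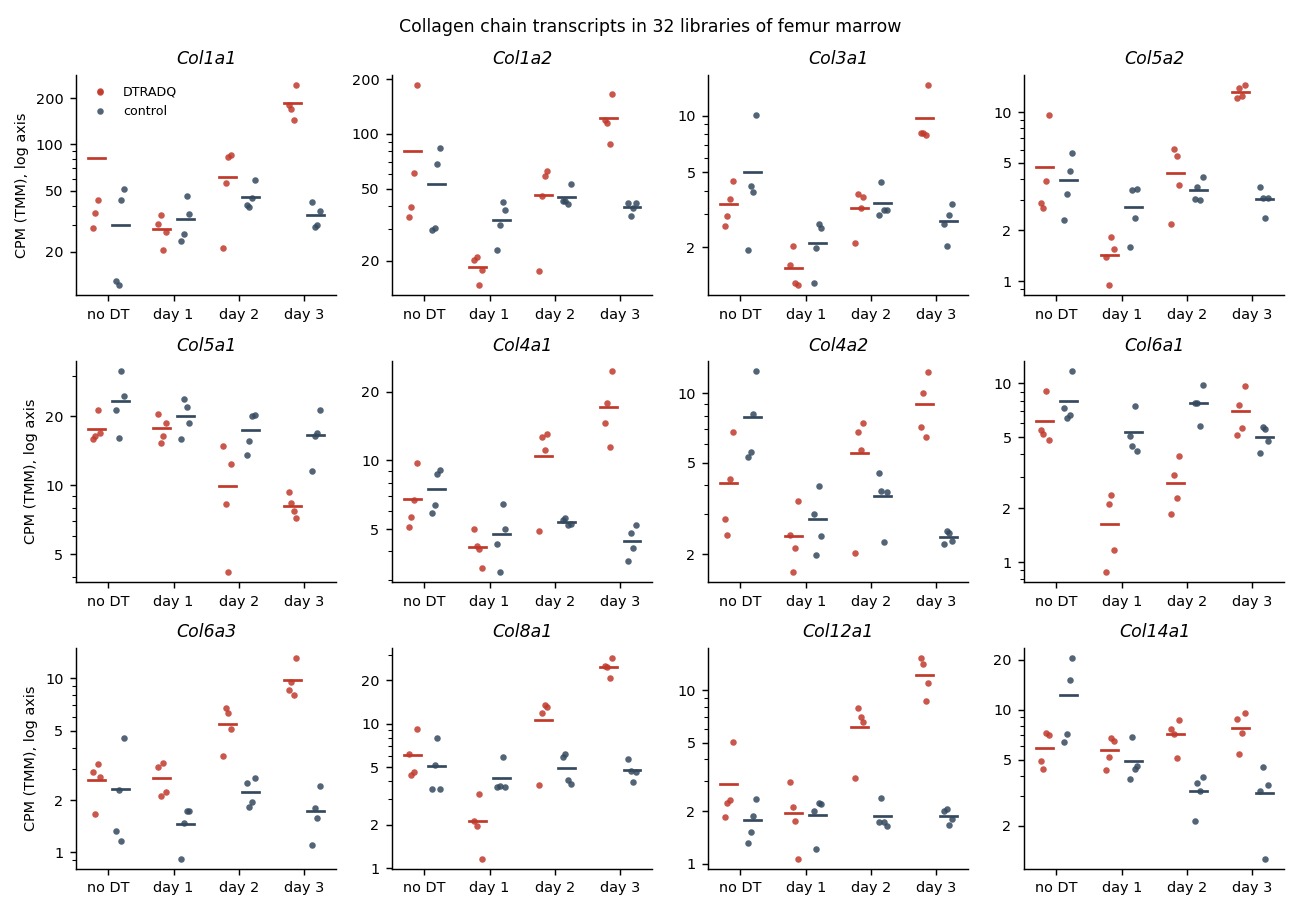
CPM with TMM scaling, on log axes, of 12 collagen chains in each library, in red for DTRADQ (left of each pair) and dark blue for controls (right), with lines at the group means, without DT and at days 1, 2 and 3. Col1a1 at day 3 spans 144 to 246 CPM in DTRADQ and 29.1 to 42.1 CPM in controls, Col6a1 is lower in DTRADQ at days 1 and 2, and Col5a1 is lower at day 3.

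Among the basement membrane chains, Col4a1 and Col4a2, which are made from neighbouring genes and assemble into 1 trimer, rose together at day 3. Col4a1 had 14.6, 17.9, 11.5 and 24.5 CPM in DTRADQ and 3.63, 4.84, 4.15 and 5.24 CPM in controls. The groups were far apart, with a log2 change of 1.94 (SE 0.25, adjusted p = 1.13e-06 in edgeR), or 3.83-fold. Col4a2 had 7.14, 10.03, 6.48 and 12.4 CPM in DTRADQ and 2.22, 2.52, 2.48 and 2.29 CPM in controls. Its log2 change was close to that of Col4a1, at 1.92 (SE 0.33, adjusted p = 6.48e-05), and library 4 was the highest and library 3 the lowest of the DTRADQ libraries for both. With the muscle covariate the changes were 1.43 (adjusted p = 0.000835) for Col4a1 and 1.13 (adjusted p = 0.027) for Col4a2.

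The 2 genes lie head to head on chromosome 8, Col4a1 at 11198423 to 11312826 on the minus strand and Col4a2 at 11312805 to 11449287 on the plus strand, so that their first exons overlap by 22 bases in the annotation used. Reads from those bases cannot be assigned without strand. At day 2, Col4a1 rose alone of the pair, with 4.91, 12.7, 11.1 and 13.02 CPM in DTRADQ and 5.51, 5.63, 5.23 and 5.25 CPM in controls. DTRADQ library 1 was below the controls and the other 3 were above them. The log2 change was 0.94 (adjusted p = 0.0187 in edgeR), and the call was lost without DTRADQ library 2, 3 or 4 or control library 3 or 4 (adjusted p = 0.0535 to 0.064). The change of Col4a2 at day 2 was 0.61 (adjusted p = 0.264), and the difference between the pair was not tested in the model.

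Col15a1, the chain of a proteoglycan-like collagen that links basement membranes to the matrix around them, had 0.872, 1.16, 0.264 and 1.27 CPM in DTRADQ at day 3 and 0, 0.360, 0.406 and 0.123 CPM in controls. DTRADQ library 3 lay within the control range, and the log2 change of 2.00 (SE 0.62, adjusted p = 0.0192 in edgeR) rests on at most 26 counts in a library. Since the gene passed the filter only through these DTRADQ libraries, its p is no support for a difference. The call was lost with the muscle covariate (log2 change 1.00, adjusted p = 0.398) and without DTRADQ library 2 or 4 or control library 1 or 4 (adjusted p = 0.0518 to 0.0705). Col18a1, whose end fragment is endostatin, had a log2 change of 1.04 that did not pass (adjusted p = 0.114).

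Of the cartilage chains, Col2a1 had 4.31, 3.16, 1.85 and 4.44 CPM in DTRADQ at day 3 and 0.256, 0.120, 0.226 and 0.491 CPM in controls. All 4 DTRADQ libraries stood well above the controls, with 28 to 91 counts against 3 to 12. The log2 change of 3.62 (SE 0.54, adjusted p = 1.04e-05 in edgeR), or 12.3-fold, was the largest of the 21 members, and it was 2.60 with the muscle covariate (adjusted p = 0.00587). Of 12 other chondrocyte genes listed, 1 passed the filter and none was called by edgeR (0 also at an unadjusted p under 0.05). Their summed level was 1.15 to 4.93 CPM in DTRADQ and 1.12 to 2.00 CPM in controls, with no count of Matn1 in the 4 DTRADQ libraries and none of Matn3, Ucma, Epyc or Cytl1 in the 4 controls. Acan, the core protein of cartilage proteoglycan, had no count in 2 DTRADQ libraries. The part of cartilage in this result was not tested. Col11a1 had 3.87, 4.21, 2.97 and 6.35 CPM in DTRADQ and 2.18, 1.68, 1.35 and 3.27 CPM in controls, with a log2 change of 1.04 that did not pass (adjusted p = 0.114), and Col11a2 had a log2 change of -0.11 (adjusted p = 0.903). Col9a1 was below the filter, with 15 counts in all, 14 of them in DTRADQ day 3 library 4. In a fit without the filter it was the 1 chain of the 23 added that was called higher at day 3. Col10a1 had 4, 3, 6 and 35 counts in DTRADQ and 9, 10, 6 and 13 in controls at day 3, and since it lies within Nt5dc1 on the other strand, with 19718 counts over all libraries, its counts are uncertain.

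The other chains include the clearest changes by p. Col12a1, a chain on the surface of type I fibres in tissues under load, had 15.3, 14.1, 8.72 and 10.99 CPM in DTRADQ at day 3 and 2.01, 2.08, 1.67 and 1.80 CPM in controls. The controls spanned a narrow range far below the DTRADQ libraries, with a log2 change of 2.70 (SE 0.29, adjusted p = 5.08e-08 in edgeR), or 6.48-fold. Col6a3, the chain of type VI microfibrils with the longest end domains, had 8.56, 9.47, 8.06 and 13.04 CPM in DTRADQ and 1.11, 1.80, 1.58 and 2.41 CPM in controls, a log2 change of 2.50 (SE 0.29, adjusted p = 1.85e-07). Col8a1 had 25.0, 24.5, 20.8 and 28.3 CPM in DTRADQ and 5.68, 4.68, 3.97 and 4.66 CPM in controls, a log2 change of 2.37 (SE 0.29, adjusted p = 5.74e-07). In each of these 3 genes the groups were apart by more than the range of either, and with the muscle covariate the changes were 1.98 for Col12a1, 2.25 for Col6a3 and 1.90 for Col8a1 (adjusted p at most 0.000251).

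Type VI collagen is assembled from Col6a1, Col6a2 and another chain such as Col6a3, and at day 3 only Col6a3 was called. Col6a1 had 5.12, 7.53, 5.62 and 9.62 CPM in DTRADQ and 4.10, 5.67, 5.55 and 4.79 CPM in controls, with overlapping groups and a log2 change of 0.48 (adjusted p = 0.193 in edgeR). Col6a2 had a log2 change of 0.58 (adjusted p = 0.23). The difference between these chains was not tested.

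Col14a1, another chain on the fibre surface, had 8.83, 5.43, 7.21 and 9.47 CPM in DTRADQ at day 3 and 3.24, 4.52, 1.26 and 3.52 CPM in controls, without overlap. Its log2 change was 1.30 (SE 0.32, adjusted p = 0.003 in edgeR), and 0.85 with the muscle covariate (adjusted p = 0.104). Col23a1, a transmembrane collagen, fell, with 0.382, 0.499, 0.264 and 0.244 CPM in DTRADQ and 0.811, 0.600, 1.40 and 0.777 CPM in controls, a log2 change of -1.34 (SE 0.39, adjusted p = 0.0122). Its 4 DTRADQ libraries were below the 4 controls, and the call was lost without DTRADQ library 4 or control library 3 (log2 changes of -1.19 and -1.05, adjusted p = 0.0514 and 0.0633).

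Stretches before the transcription start are shown for 3 chains that rose at day 3 in every setting and the 1 fibrillar chain that fell. They are the 150 bases upstream of the annotated start in RefSeq on GRCm38.p6, read 5′ to 3′ on the gene's strand, with capitals marking TATAAA or GGGCGG on either strand (GGGCGG reads CCGCCC on the minus strand). Col3a1 is at chr1:45311388-45311537 (plus strand), Col8a1 at chr16:57754738-57754887 (minus), Col6a3 at chr1:90843972-90844121 (minus) and Col5a1 at chr2:27886275-27886424 (plus).
Col3a1: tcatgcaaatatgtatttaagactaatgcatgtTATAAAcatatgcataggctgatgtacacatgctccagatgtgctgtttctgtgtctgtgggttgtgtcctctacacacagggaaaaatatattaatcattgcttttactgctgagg
Col8a1: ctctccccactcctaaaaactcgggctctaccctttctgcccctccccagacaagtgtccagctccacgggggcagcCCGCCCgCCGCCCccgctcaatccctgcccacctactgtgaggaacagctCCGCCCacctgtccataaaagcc
Col6a3: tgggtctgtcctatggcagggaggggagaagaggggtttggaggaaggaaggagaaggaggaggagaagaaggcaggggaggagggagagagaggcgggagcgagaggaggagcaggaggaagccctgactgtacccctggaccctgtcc
Col5a1: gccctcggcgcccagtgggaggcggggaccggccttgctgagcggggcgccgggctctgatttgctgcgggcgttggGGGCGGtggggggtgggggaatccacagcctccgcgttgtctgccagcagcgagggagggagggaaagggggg
The 3 chains shown that rose differed in these letters. Col4a1 and Col4a2 also rose in every setting and have an annotated start in RefSeq, but are not shown. Col3a1 had TATAAA and no GGGCGG, Col8a1 had GGGCGG in 3 places on the minus strand, and Col6a3 had neither. The chain that fell, Col5a1, had GGGCGG once. RefSeq windows were matched by symbol for 35 of the 44 members, and 250 bases upstream of the start were searched on both strands. TATAAA was found in 5 of them (12.4% of all 32851 windows), GGGCGG in 21 (32.7% of all), CCAAT in 13 (33.8% of all) and TGANTCA in 1, Col6a1 (6.75% of all). A member with several windows was counted once if any of them matched, while the shares of all are per window. The counts of TATAAA and CCAAT lie near those shares. A match is a description of the letters only.

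At day 2 of DT the chains that rose were Col12a1, Col6a3, Col14a1, Col8a1 and Col4a1, while Col6a1 and Col5a1 fell. Col12a1 had 3.12, 7.95, 7.06 and 6.56 CPM in DTRADQ and 1.74, 2.39, 1.74 and 1.64 CPM in controls, a log2 change of 1.71 (SE 0.30, adjusted p = 0.000391 in edgeR). Col6a3 had 3.58, 6.73, 6.33 and 5.09 CPM in DTRADQ and 2.49, 1.81, 1.94 and 2.69 CPM in controls, a log2 change of 1.28 (SE 0.30, adjusted p = 0.00661). In both, DTRADQ library 1 was the lowest of its group and still above every control. Col14a1 had 7.63, 7.17, 5.08 and 8.61 CPM in DTRADQ and 2.15, 3.62, 3.23 and 3.94 CPM in controls, a log2 change of 1.14 (adjusted p = 0.0279) that was lost without DTRADQ library 2 or 4 or control library 1 or 3 (adjusted p = 0.0533 to 0.0808). Col8a1 had 3.74, 11.8, 13.4 and 13.1 CPM in DTRADQ and 5.85, 6.15, 4.07 and 3.81 CPM in controls. Its DTRADQ library 1 was below every control, and the log2 change of 1.07 (adjusted p = 0.0225) was lost without DTRADQ library 2, 3 or 4 or control library 3 or 4 (adjusted p = 0.0571 to 0.0965). Without DTRADQ library 2 or control library 3, 3 members in all were called at day 2, and without DTRADQ library 3 or 4 or control library 4, 4 were.

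Col6a1 was lower in DTRADQ on the first 2 days. At day 1 it had 0.882, 2.12, 2.36 and 1.16 CPM in DTRADQ and 5.09, 4.47, 7.51 and 4.19 CPM in controls. At day 2 it had 1.87, 3.06, 2.28 and 3.92 CPM in DTRADQ and 7.77, 7.76, 5.75 and 9.78 CPM in controls. The groups were apart on both days, with log2 changes of -1.69 (SE 0.30, adjusted p = 0.000448 in edgeR) at day 1 and -1.49 (SE 0.28, adjusted p = 0.000934) at day 2, 3.22-fold and 2.82-fold lower. It was the 1 collagen chain called at day 1. Other chains were low in DTRADQ that day without passing over all genes: Col8a1 had 2.13, 1.97, 3.27 and 1.16 CPM in DTRADQ and 3.62, 3.70, 5.91 and 3.66 CPM in controls, apart but with an adjusted p of 0.117 (log2 change -0.96). Col6a3 lay the other way, at 3.09, 2.12, 3.27 and 2.23 CPM in DTRADQ and 0.920, 1.47, 1.74 and 1.73 CPM in controls, with a log2 change of 0.88 (adjusted p = 0.134).

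Without DT the calls were few and each depended on single libraries. With 1 higher and 3 lower of 21, they did not exceed the shares of all genes (12.7% and 14.4%). These counts are therefore no result about collagens. Col1a1 had 28.6, 35.7, 43.6 and 219 CPM in DTRADQ and 12.9, 12.2, 43.4 and 51.6 CPM in controls. The high value of DTRADQ library 4 goes with the highest muscle sum of that group, 373, and with the highest Col1a2 there, 187 CPM against 34.6 to 60.7 CPM in the other 3. The log2 change of Col1a1 was 1.48 (SE 0.49, adjusted p = 0.0235 in edgeR). Without DTRADQ library 4 it was 0.30 (adjusted p = 0.613), without control library 1 or 2 it was 1.22 and 1.26 (adjusted p = 0.0569 and 0.0692), and with the muscle covariate it was 0.84 (adjusted p = 0.122). The groups overlapped, since control libraries 3 and 4 stood above DTRADQ libraries 1 and 2.

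The 3 chains that fell without DT were Col4a2, Col14a1 and Col23a1. Col4a2 had 2.85, 2.43, 4.24 and 6.79 CPM in DTRADQ and 5.28, 5.57, 8.13 and 12.4 CPM in controls, a log2 change of -0.91 (SE 0.34, adjusted p = 0.0433 in edgeR). Col14a1 had 4.87, 4.40, 7.25 and 7.07 CPM in DTRADQ and 6.39, 7.09, 15.1 and 20.4 CPM in controls, a log2 change of -1.01 (SE 0.32, adjusted p = 0.0182). For both, the 2 highest values were those of control libraries 3 and 4, the pair with the lowest TMM factors. Col23a1 had 0.570, 0.207, 0.752 and 0.485 CPM in DTRADQ and 0.694, 1.10, 1.16 and 1.78 CPM in controls, a log2 change of -1.15 (SE 0.41, adjusted p = 0.0354). Without both of those control libraries the changes were -0.42 for Col4a2, -0.19 for Col14a1 and -0.82 for Col23a1, none of them called (adjusted p = 0.522, 0.762 and 0.278). Leaving out 1 library also ended the call of Col4a2 for DTRADQ libraries 1, 2 and 3 (adjusted p = 0.0673 to 0.203, with control libraries 3 and 4), of Col14a1 for DTRADQ libraries 1 and 2 (0.0613 to 0.131, with the same controls) and of Col23a1 for DTRADQ libraries 1, 2 and 4 and control library 2 (0.0562 to 0.135, with the same controls). In all, 1 member was called without DTRADQ library 1 or 2 or control library 3 or 4, and 2 were called without DTRADQ library 4 or control library 2.

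The change of the genotype difference with DT was tested as an interaction. From no DT to day 3, the difference moved upward in 11 members (9.00% of all genes): Col3a1, Col5a2, Col4a1, Col4a2, Col15a1, Col2a1, Col6a2, Col6a3, Col8a1, Col12a1 and Col14a1. Without Col15a1, which passed the filter only through the DTRADQ day 3 group, they were 10 of 20. The log2 differences ran from 1.33 in Col6a2 to 2.94 in Col2a1, with 2.83 in Col4a2 (SE 0.47, adjusted p = 9.48e-05 in edgeR) and 2.28 in Col3a1 (SE 0.45, adjusted p = 0.000505). The type I chains were not among them (Col1a1 0.95, adjusted p = 0.344, and Col1a2 1.01, adjusted p = 0.191). The call of Col2a1 was lost without control no-DT library 3 (log2 difference 1.52, adjusted p = 0.373), and was at 3.54 without control no-DT library 1. Those of Col15a1 and Col6a2 were lost without any of 10 and 13 of the 16 libraries (adjusted p = 0.0502 to 0.101 and 0.0514 to 0.113). Without both control no-DT libraries with the lowest TMM factors 8 members were called, and Col2a1 (1.03, adjusted p = 0.625), Col15a1 (adjusted p = 0.181) and Col6a2 (adjusted p = 0.193) were lost. With the muscle covariate 8 were called as well, and the same 3 genes were lost (adjusted p = 0.059, 0.161 and 0.239). Both no-DT and day 3 libraries enter here, so the lane label moves with it.

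From no DT to day 1, the interaction was called in Col6a1 alone, downward (5.83% of all genes), at -1.33 (SE 0.40, adjusted p = 0.0282 in edgeR). It was lost without DTRADQ no-DT library 3, DTRADQ day 1 library 1 or 4 or control day 1 library 3 (-1.25 to -1.10, adjusted p = 0.0522 to 0.0734), and 5 members were called, all downward, without both control no-DT libraries with the lowest TMM factors. From no DT to day 2 it was called upward in Col4a2 and Col14a1 (6.22% of all genes), at 1.52 (adjusted p = 0.0366) and 2.14 (adjusted p = 0.00276). With 1 of 21 members to day 1 and 2 of 21 to day 2, these counts lie near the shares of all genes. They are no result about collagens. Col4a2 was lost without any of 11 of the 16 libraries (adjusted p = 0.0513 to 0.0844), and also without both control libraries named above (1.04, adjusted p = 0.166), while Col14a1 was not lost in either way. With the replicate number as a block, 4 members were called in this interaction, 3 upward and 1 downward. Between day 1 and day 3, both under DT, the genotype difference moved upward in 12 members (2.44% of all genes), with Col8a1 at 3.33 (SE 0.44, adjusted p = 2.67e-05), Col5a2 at 3.05 (SE 0.49, adjusted p = 0.000166) and Col1a1 at 2.64 (SE 0.68, adjusted p = 0.0116). The others were Col1a2, Col3a1, Col4a1, Col4a2, Col2a1, Col11a1, Col6a1, Col6a3 and Col12a1. The lane label differs between day 1 and day 3 as well, so it moves with this contrast too. Adding the muscle covariate left 7 of the 21 called; Col1a1 (adjusted p = 0.15), Col1a2 (0.0612), Col4a2 (0.0826), Col6a3 (0.0922) and Col11a1 (0.268) were not. Col11a1 was also lost without any of 11 of the 16 libraries (adjusted p = 0.0556 to 0.103).

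Within DTRADQ, 6 members fell at day 1 against no DT (4.22% of all genes). Col11a1 averaged 0.727 ± 0.393 CPM at day 1 and 5.07 ± 5.19 CPM without DT, a log2 change of -2.77 (adjusted p = 0.00206 in edgeR), and -1.76 without DTRADQ no-DT library 4 (adjusted p = 0.0437). Col1a2 averaged 18.4 ± 2.84 CPM and 80.5 ± 72.0 CPM, a log2 change of -2.13 (adjusted p = 0.000829), and -1.29 without that library (adjusted p = 0.0202). The remaining 4 were Col6a1 (-1.89), Col6a2 (-1.75), Col5a2 (-1.72) and Col8a1 (-1.48). Adding the muscle covariate left 1 of the 6 called; Col11a1, Col1a2, Col5a2, Col6a2 and Col8a1 had adjusted p of 0.0609 to 0.112. At day 2, Col6a3 and Col12a1 rose by 1.06 and 1.12 (4.27% of all genes) and Col5a1 and Col6a1 fell by 0.83 and 1.16 on the log2 scale (4.85% of all genes). Each of these 4 was lost without 1 or more single libraries, Col6a1 without DTRADQ no-DT library 3 (adjusted p = 0.061) and the others without DTRADQ day 2 library 2 or 3 among others (0.0509 to 0.142). At day 3, 8 members rose (12.5% of all genes) and Col5a1 fell (16.8% of all genes). That count of falls is below the share of all genes and is no result about collagens. Col12a1 averaged 12.3 ± 3.00 CPM at day 3 and 2.87 ± 1.47 CPM without DT, a log2 change of 2.11 (adjusted p = 2.36e-06), and Col8a1 averaged 24.6 ± 3.08 and 6.08 ± 2.18 CPM, a log2 change of 2.02 (adjusted p = 6.5e-06). The other 6 were Col2a1 (2.20), Col6a3 (1.91), Col3a1 (1.51), Col5a2 (1.49), Col4a1 (1.34) and Col4a2 (1.16).

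In controls, which lack Cre, 4 of the 21 members fell against no DT at day 1 (17.4% of all genes), 4 at day 2 (14.4% of all genes) and 4 at day 3 (15.4% of all genes). These counts lie near the shares of all genes and are no result about collagens. Col4a2 fell on each day, with means of 2.84 ± 0.863 CPM at day 1, 3.57 ± 0.945 CPM at day 2 and 2.38 ± 0.145 CPM at day 3 against 7.86 ± 3.32 CPM without DT. Col14a1 also fell on each day, to 4.90, 3.23 and 3.13 CPM against 12.2 ± 6.71 CPM without DT, and so did Col6a2, by 1.62, 1.03 and 1.21 on the log2 scale. The other calls were Col3a1 at day 1 (-1.16), Col23a1 at day 2 (-1.22) and Col4a1 at day 3 (-0.72). They share the control group without DT and with it libraries 3 and 4. Without both of those libraries 1 member fell at day 1, 1 at day 2 and 2 at day 3, and Col1a1 was called higher at day 2. Col3a1, Col4a2 and Col14a1 were then lost at day 1 (adjusted p = 0.311, 0.0901 and 0.358), Col4a2, Col6a2 and Col23a1 at day 2 (0.305, 0.32 and 0.211), and Col6a2 and Col4a1 at day 3 (0.163 and 0.333). Without control no-DT library 4 alone, Col3a1 at day 1 was at -0.62 (adjusted p = 0.126) and Col6a2 at day 3 at -0.89 (adjusted p = 0.056), and 2 members were called at day 3. At day 2, 1 was called without control no-DT library 3 or 4 or control day 2 library 3, and 2 without control no-DT library 2. Of the calls at days 2 and 3, those of Col4a2, Col6a2 and Col23a1 at day 2 and of Col4a1 at day 3 were each lost without any of 3 to 6 of 8 libraries (adjusted p = 0.0516 to 0.147).

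Summed over all 44 genes, collagen counts made up 435.7, 426, 343 and 585.5 CPM in DTRADQ at day 3 and 137, 125, 124.5 and 145 CPM in controls. The fibrillar chains summed to 343 ± 80.5 CPM in DTRADQ and 99.1 ± 9.66 CPM in controls, the basement membrane chains to 28.5 ± 8.90 and 8.17 ± 1.03 CPM, the cartilage chains to 9.56 ± 3.50 and 3.93 ± 0.797 CPM, and the other chains to 67.0 ± 8.95 and 21.7 ± 1.09 CPM. No class sum of DTRADQ overlapped that of controls at day 3. Col1a1 and Col1a2 together held 68.5% of the collagen counts in DTRADQ and 55.5% in controls at day 3. At day 1 the total was 97.0 ± 7.70 CPM in DTRADQ and 128 ± 26.9 CPM in controls, with overlapping libraries. At day 2 it was 187 ± 64.8 and 157 ± 18.01 CPM, with DTRADQ library 1 at 94.9 CPM below every control and the other 3 above every control. These sums were not tested.

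**Figure D3:**
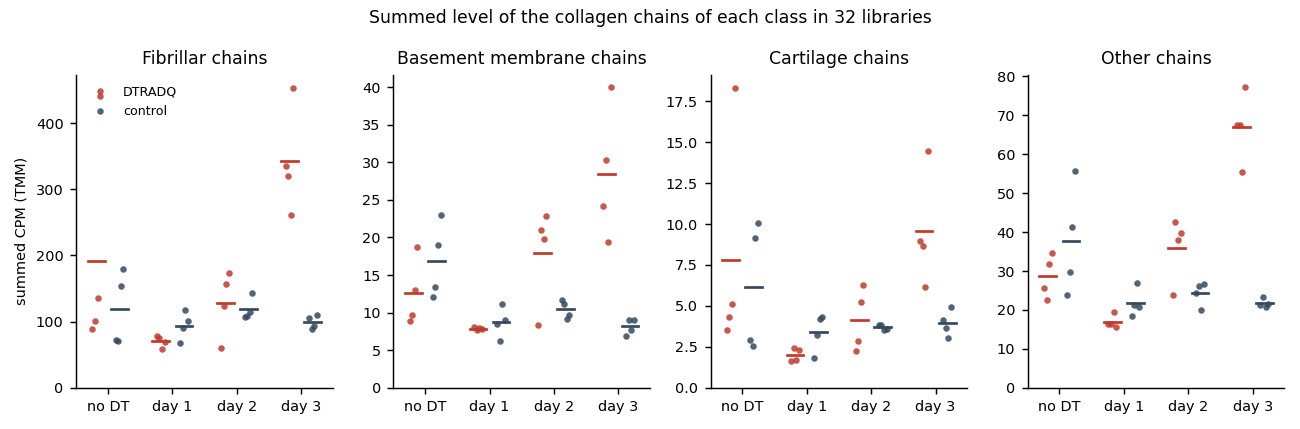
Summed CPM with TMM scaling of the fibrillar, basement membrane, cartilage and other collagen chains in each library, in red for DTRADQ (left of each pair) and dark blue for controls (right), with lines at the means. At day 3 the fibrillar sum spans 262 to 454 CPM in DTRADQ, above 89.1 to 110 CPM in controls.

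The balance between chains, 2 pairs of the same trimer and Col3a1 beside Col1a1 of another collagen, was measured as the ratio of RPKM values within a library and tested with an exact permutation test of 4 against 4 libraries, two-sided, whose smallest p is 0.0286. With 12 such tests that p becomes 0.0571 after Benjamini-Hochberg adjustment when 6 tests reach it, as here, so no ratio passed. The ratio of Col1a1 to Col1a2 was higher in DTRADQ in every group. Its size depends on the annotated lengths behind RPKM, 6563 bases for Col1a1 and 12136 for Col1a2. As a ratio of RNA it cannot be set against the 2 of the assembled protein. It was 1.67 ± 0.355 in DTRADQ and 0.966 ± 0.225 in controls without DT, 2.81 ± 0.198 and 1.79 ± 0.218 at day 1, 2.42 ± 0.189 and 1.88 ± 0.181 at day 2, and 2.84 ± 0.136 and 1.61 ± 0.193 at day 3. In all 4 comparisons each DTRADQ library was above each control (exact permutation p = 0.0286, adjusted 0.0571, each). The ratio of Col4a1 to Col4a2 was 1.73 ± 0.375 in DTRADQ and 0.988 ± 0.189 in controls without DT, apart in the same way. After DT it overlapped, at 1.82 and 1.65 at day 1, 1.94 and 1.56 at day 2 and 1.84 and 1.82 at day 3 (exact permutation p = 0.829, 0.171 and 0.886). The ratio of Col3a1 to Col1a1 was 0.0345 ± 0.00472 in DTRADQ and 0.0543 ± 0.0117 in controls at day 3, without overlap (exact permutation p = 0.0286, adjusted 0.0571).

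The enzymes and chaperones that process the chains were taken from lists of the pathway. Over all genes, 8.80% rose and 14.1% fell at day 3, and 4.40% and 4.12% at day 2. At day 1 the shares were 0.888% and 3.02%, and without DT 12.7% and 14.4%. Counts of calls in these lists and in the marker lists are to be read beside these shares. Of 17 tested genes of folding and modification, 6 rose and none fell at day 3, with 8 at an unadjusted p under 0.05. Serpinh1, the collagen chaperone HSP47, averaged 103 ± 13.8 CPM in DTRADQ (90.6 to 120 CPM) and 22.9 ± 2.06 CPM in controls (21.1 to 25.3 CPM). The groups were far apart, with a log2 change of 2.17 (SE 0.23, adjusted p = 3.47e-08 in edgeR), and 2.09 with the muscle covariate (adjusted p = 1.1e-05). P4ha2, a prolyl hydroxylase subunit, rose by 2.64 (3.38 ± 0.997 CPM in DTRADQ and 0.537 ± 0.133 CPM in controls), and Fkbp10, a prolyl isomerase of the same compartment, by 2.29 (8.42 ± 1.39 and 1.72 ± 0.479 CPM). Plod2, the lysyl hydroxylase of the telopeptides, rose by 1.65 (adjusted p = 0.00387), but was at 0.72 with the muscle covariate (adjusted p = 0.271). Another prolyl hydroxylase subunit, P4ha1, had 15.2 ± 0.888 CPM in DTRADQ and 11.9 ± 1.449 CPM in controls, a log2 change of 0.35 that did not pass (adjusted p = 0.0626). Under the muscle covariate 3 of the 17 rose at day 3. Plod1 and Creb3l1, the other 2 that rose, by 0.47 and 0.80, were at 0.57 and 0.65 with that covariate and no longer called (adjusted p = 0.0534 and 0.179).

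Of 11 tested genes that trim the end pieces or cross-link the fibres, 5 rose at day 3 and none fell. Loxl2 had 3.75 ± 0.551 CPM in DTRADQ and 0.522 ± 0.362 CPM in controls, a log2 change of 2.82 (SE 0.37, adjusted p = 1.21e-06 in edgeR), and Loxl3 had 9.21 ± 0.966 and 2.72 ± 0.780 CPM, with its log2 change at 1.75 (SE 0.25, adjusted p = 5.45e-06). Lox, the lysyl oxidase that starts cross-links, spanned 13.6 to 19.5 CPM in DTRADQ, above the 2.80 to 5.85 CPM of controls, with a log2 change of 1.98 (SE 0.31, adjusted p = 1.51e-05). Pcolce, the enhancer of the enzyme that removes the C-terminal end, rose by 1.05 (14.5 ± 1.66 CPM in DTRADQ and 7.06 ± 2.97 CPM in controls), and Adamts14, which removes the N-terminal end, by 1.97. All 5 were also called with the muscle covariate.

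At day 1 the same list had gone the other way, with 4 genes lower and none higher. Lox had 0.861 ± 0.0751 CPM in DTRADQ and 3.43 ± 0.573 CPM in controls, a log2 change of -1.97 (SE 0.40, adjusted p = 0.00201 in edgeR). Adamts2, the main remover of the N-terminal end of type I, fell by 2.00, and Loxl1, a cross-linking enzyme known for elastic fibres, fell by 2.20. Pcolce fell by 1.02 (adjusted p = 0.0453), a call lost without any of 7 of the 8 libraries (all but control library 1, adjusted p = 0.0517 to 0.191). At day 2, Adamts2 (-1.12) and Loxl1 (-1.22) were lower and none was higher, each lost without any of 6 and 5 of the 8 libraries (adjusted p = 0.0546 to 0.205). In folding and modification none of 17 was called at day 1 by edgeR (2 at an unadjusted p under 0.05), and at day 2 P4ha2 rose by 1.59, which was lost without DTRADQ library 2 (adjusted p = 0.0705). Without DT, Serpinh1 and Tmem38b were called higher (0.69 and 0.64) and Colgalt1, Crtap and Ppib lower (-0.47, -0.94 and -0.67). These 2 and 3 of 17 lie near the shares of all genes, 12.7% and 14.4%, and are no result about the list. Of these genes Ppib, a prolyl isomerase, was not lost without any 1 library or without both of control libraries 3 and 4 (-0.55, adjusted p = 0.00236 in edgeR). Serpinh1, Tmem38b, Colgalt1 and Crtap were at 0.58, 0.21, -0.22 and -0.19 without both and no longer called (adjusted p = 0.19, 0.519, 0.342 and 0.683). No gene of the list for end pieces and cross-links was called without DT by edgeR (1 at an unadjusted p under 0.05).

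**Figure D4:**
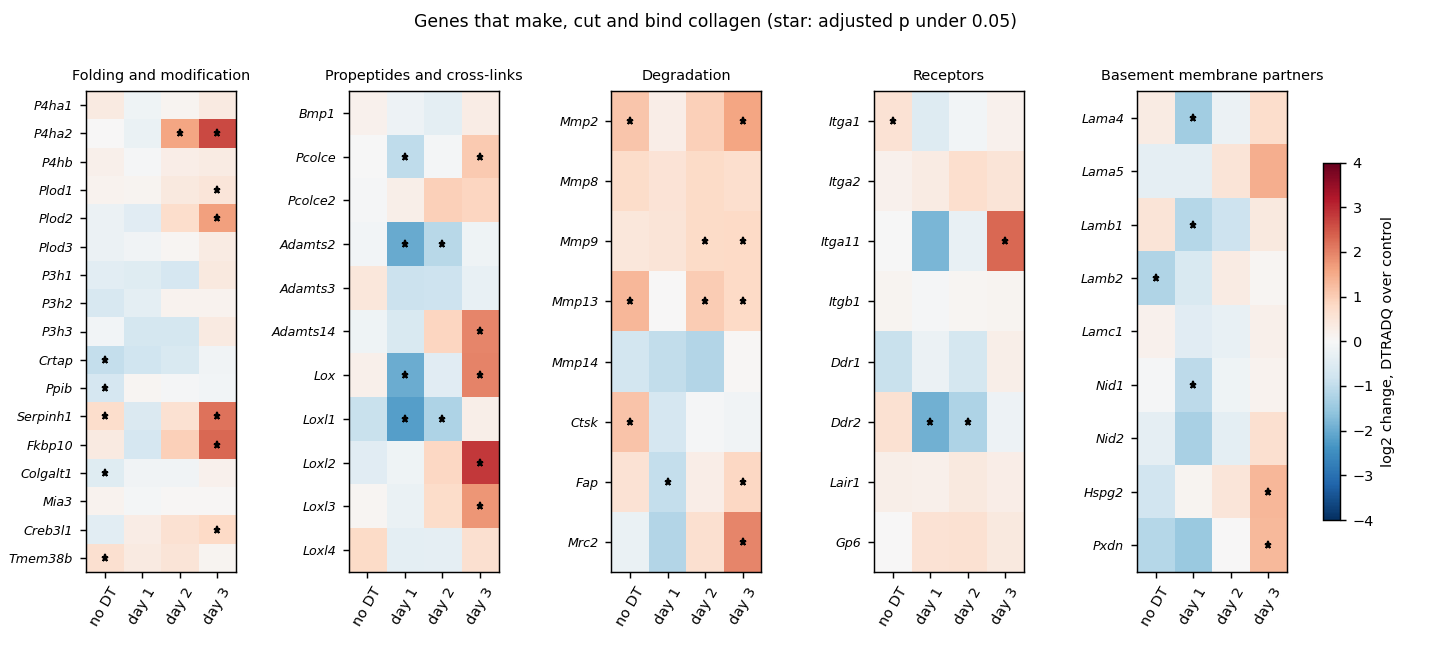
Log2 change, DTRADQ over control, of the tested genes of 5 pathway lists (rows) without DT and at days 1, 2 and 3 (columns), red for higher and blue for lower in DTRADQ, with a star where the adjusted p was under 0.05. At day 3 the stars are all on red cells (Serpinh1 2.17, Loxl2 2.82), and at day 1 all on blue ones (Lox -1.97, Ddr2 -1.93).

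Of 8 tested genes of collagen breakdown, 5 rose at day 3: Mmp2 by 1.58, Mrc2, an uptake receptor for collagen fragments, by 1.96, Fap by 0.82, Mmp9 by 0.81 and Mmp13 by 0.80. Mmp2, a gelatinase, averaged 5.08 ± 1.20 CPM in DTRADQ and 1.70 ± 0.236 CPM in controls (adjusted p = 0.000419 in edgeR). Mmp9, the gelatinase of neutrophils and osteoclasts, averaged 600 ± 91.7 and 343 ± 84.9 CPM (adjusted p = 0.00317). Mmp13, the interstitial collagenase of the mouse, averaged 55.6 ± 13.0 and 32.05 ± 9.58 CPM (adjusted p = 0.0393), with overlapping groups and a call lost without any of 6 of the 8 libraries (all but DTRADQ 4 and control 3, adjusted p = 0.0523 to 0.164). With the muscle covariate Mrc2, Fap and Mmp13 were at 1.53, 0.65 and 0.48 and no longer called (adjusted p = 0.0507, 0.0955 and 0.34). At day 2, Mmp13 rose by 1.03 and Mmp9 by 0.76, each lost without some single libraries (adjusted p = 0.0556 to 0.0763), and at day 1 Fap fell by 0.94 and was lost without DTRADQ library 1 or control library 3 (adjusted p = 0.066 and 0.0793). Without DT, Mmp13, Mmp2 and Ctsk rose by 1.33, 1.12 and 1.14, and without both of control libraries 3 and 4 they were at 0.92, 0.77 and 1.39 and not called (adjusted p = 0.0579, 0.252 and 0.0737).

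The receptors for collagen gave single calls. At day 3 and without DT, 1 of 8 rose, near the shares of all genes (8.80% and 12.7%), so those counts are no result about receptors. Ddr2, a receptor tyrosine kinase for fibrillar collagen, had 1.63 ± 0.234 CPM in DTRADQ and 6.23 ± 1.57 CPM in controls at day 1, a log2 change of -1.93 (SE 0.30, adjusted p = 5.13e-05 in edgeR), and 3.02 ± 1.56 and 7.09 ± 1.55 CPM at day 2, a log2 change of -1.25 (adjusted p = 0.00504). At day 3 it had 4.42 ± 0.709 and 5.06 ± 0.227 CPM, with a log2 change of -0.19 (adjusted p = 0.646). Itga11, the alpha subunit of an integrin for type I collagen, was the 1 of 8 tested receptors that rose at day 3, to 3.40 ± 0.765 CPM in DTRADQ, against 0.691 ± 0.137 CPM in controls, by 2.28 (SE 0.42, adjusted p = 0.000138). Without DT, Itga1 was 0.57 higher (adjusted p = 0.0243), and 0.61 (adjusted p = 0.08) without both of control libraries 3 and 4.

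Of the 9 tested partners of type IV collagen in the basement membrane, Hspg2 (perlecan) and Pxdn (peroxidasin, which makes the sulfilimine cross-link of type IV) rose at day 3, by 1.33 and 1.31, and with the muscle covariate they were at 1.08 and 0.93 and not called (adjusted p = 0.133 and 0.247). The call of Pxdn was also lost without DTRADQ library 4 or control library 1 (adjusted p = 0.0632 at most). At day 1, Nid1 (nidogen, a linker of laminin and type IV collagen), Lama4 and Lamb1 (laminin chains) fell by 1.04, 1.40 and 1.13. Nid1 averaged 3.91 ± 0.559 CPM in DTRADQ and 8.08 ± 1.74 CPM in controls at day 1 (adjusted p = 0.00639 in edgeR) and 8.16 ± 2.19 and 7.38 ± 1.36 CPM at day 3 (log2 change 0.15, adjusted p = 0.67, and -0.06 with the muscle covariate). Lama4 and Lamb1 were each lost without some single libraries (adjusted p = 0.0561 to 0.147). None of the 9 was called at day 2 by edgeR (1 at an unadjusted p under 0.05). Without DT, Lamb2 fell by 1.21 (adjusted p = 0.042) and was lost without any of 6 of the 8 libraries (adjusted p = 0.0649 to 0.112). That 1 of 9 fell, where 14.4% of all genes did, is no result about the list.

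Marker genes of cells that can make collagen moved in both directions at day 3, where 8.80% of all genes rose and 14.1% fell. The 12 markers of the adiponectin-lineage stroma summed to 403 to 569 CPM in DTRADQ and 924 to 1202 CPM in controls, with 11 of the 12 lower. Their median log2 change was -3.44, a larger fall than that of the sum. The 15 osteoblast and osteocyte markers summed to 94.5 to 117 CPM and 166 to 253 CPM, with 3 of 12 tested lower (Ibsp, Omd and Phex) and 2 higher (Alpl and Dkk1), 6 of the 12 above 0 and a median log2 change of 0.12. Ibsp, bone sialoprotein and the most abundant of them, was 61.5 ± 10.5 CPM in DTRADQ and 156.5 ± 38.9 CPM in controls, and Alpl, alkaline phosphatase, was 7.24 ± 1.79 and 4.69 ± 0.425 CPM. The 9 mural and smooth muscle markers summed to 171 to 236 CPM and 33.5 to 44.7 CPM, with 5 of 8 higher and 2 lower. Within that list Tagln was 58.1 ± 15.7 CPM in DTRADQ and 1.00 ± 0.333 CPM in controls, and Acta2 was 121 ± 11.1 and 17.6 ± 3.26 CPM, while Rgs5 and Notch3 were lower by 0.81 and 1.17 on the log2 scale. The 14 endothelial markers summed to 299 to 369 CPM and 172 to 232 CPM, with 9 higher and none lower, the 10 fibroblast markers to 103 to 123.5 CPM and 79.2 to 116 CPM, with 1 of 7 higher and 3 lower, and the 7 Schwann cell markers to 43.0 to 50.3 CPM and 35.7 to 41.8 CPM, with 1 of 3 higher and 1 lower. Of 13 tested skeletal muscle genes 10 were higher, such as Acta1 (104 ± 95.2 CPM in DTRADQ, against 6.03 ± 7.06 CPM in controls). The part of these cell types in the collagen changes was not tested.

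**Figure D5:**
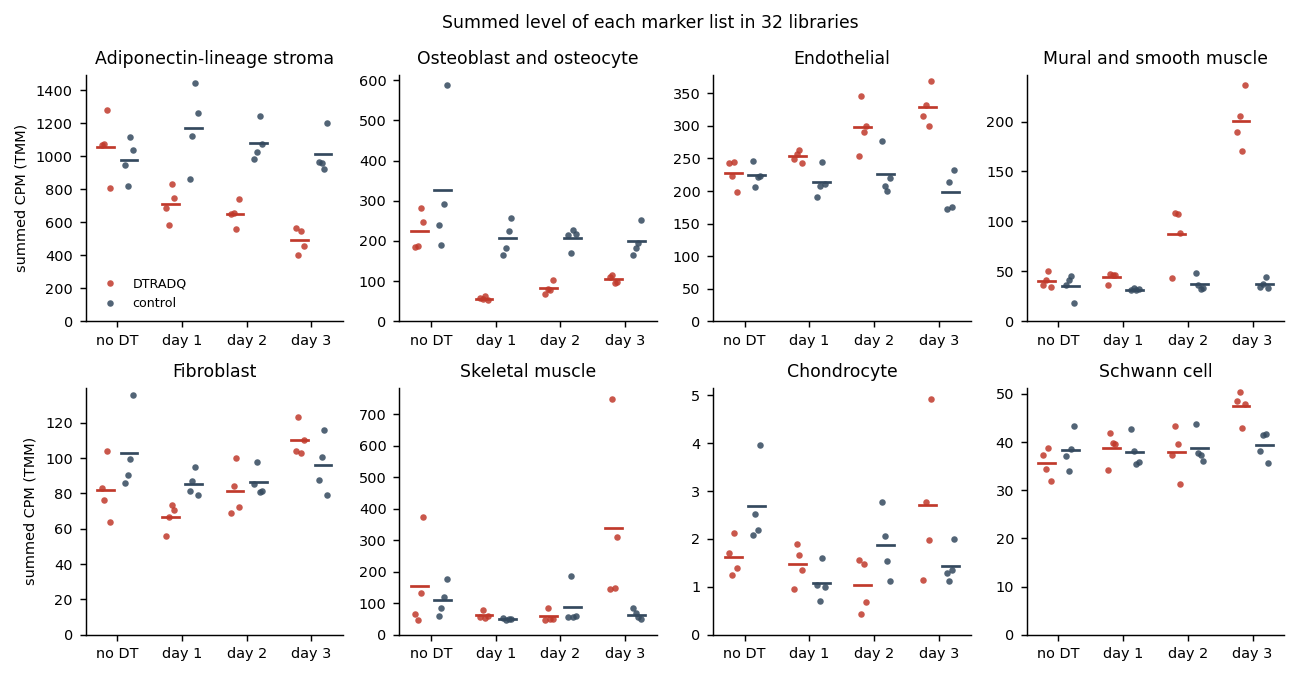
Summed CPM with TMM scaling of 8 lists of cell type markers in each library, in red for DTRADQ (left of each pair) and dark blue for controls (right), with lines at the means, without DT and at days 1, 2 and 3. At day 3 the mural and smooth muscle sum spans 171 to 236 CPM in DTRADQ, above 33.5 to 44.7 CPM in controls, while the adiponectin-lineage sum is lower in DTRADQ.

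The course of these lists over the days differed. The osteoblast and osteocyte sum at day 1 was already 52.3 to 62.7 CPM in DTRADQ, below the 166 to 258 CPM of controls, and 67.5 to 104 against 169 to 227 CPM at day 2. Of its 12 tested genes 1, Ibsp, was lower at day 1 and 2, Ibsp and Omd, at day 2, with 6 of the 12 above 0 at day 2. The mural and smooth muscle sum was 36.8 to 47.4 CPM in DTRADQ and 31.0 to 33.2 CPM in controls at day 1, and 43.4, 109, 108 and 88.2 CPM against 32.3 to 48.2 CPM at day 2. DTRADQ day 2 library 1 had the lowest mural sum of its group. Its skeletal muscle, osteoblast and osteocyte, endothelial and fibroblast sums were the lowest of the group as well. Its adiponectin-lineage, chondrocyte and Schwann cell sums were not. The same library was the lowest of its group in 14 of the 21 tested chains. Among them were 4 of the 5 that rose at day 2, all but Col14a1. With 4 libraries in the group this is a description.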

How the data were processed

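Libraries from 32 femoral marrow samples were prepared by Clontech SMARTer chemistry, per the labels' protocols. Reads were processed with bcl2fastq, STAR 2.0.4b and Subread featureCounts 1.45 on GRCm38, per the submitters' processing notes. For annotation release, strand and multiply mapped reads, settings were not given in the sources used here. Each table holds, per the file headers, a count per gene beside CPM and RPKM made by the authors. The deposited CPM equals the count over the library's total, and the deposited RPKM equals that CPM per kilobase.

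The counts were tested with edgeR 4.0.16 (R 4.3.3): filterByExpr with a minimum count of 10, TMM, 1 mean for each of 8 groups, quasi-likelihood F tests of 14 contrasts over 14527 genes and Benjamini-Hochberg adjustment with a threshold of 0.05. The standard error is the log2 change over the square root of F. Printed CPM values use TMM scaling. Ratios of chains used exact permutation tests (scipy 1.17.1). Alternatives were DESeq2 1.42.0, its size factors in edgeR, no filter (28075 genes), a fit to the compared groups alone, limma 3.58.1 voom with weights per library, the replicate number as a block, a log ratio of CPM with a pseudocount of 0.5 and each library left out in turn. A skeletal muscle covariate (pseudocount 0.5) was a further listed alternative, and the fit without both apart control libraries was chosen after seeing the data. The fit was checked on simulated counts.

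The members and the gene lists were chosen with earlier results of these data known. Genes were named where they were called in a genotype comparison, with values in every library for 17 chains, up to 3 genes per direction for each pathway list by smallest p, and 8 pathway genes in any case; chains singled out although not called were chosen after their values were seen. Labels say that each library is 1 mouse, and no pair of libraries of a group were copies. Replicate numbers are shared between genotypes, but the labels do not say what they mark. Without DT, same-numbered libraries deviated together (correlations of 0.144 to 0.178), which was counted as pairing there. DTRADQ libraries 1 and 3 were closest to their own number, and libraries 2 and 4 were not. The main fit has no term for such pairing, so the calls without DT given above are unpaired. Only the alternative with the replicate number as a block takes it into account. Precision is set by library totals of 8.97 to 22.9 M counts.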

Additional observations from a re-analysis of the deposited data

Results flagged for a closer look

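In groups of 4 libraries, 14 of 136 groups of values (17 chains in 8 groups) held a library far from the other 3, with a gap to its neighbour above 0.829 of the group's range; chance flags about 1 in 20. DTRADQ library 4 without DT was high in Col1a1 (219 CPM), Col1a2 (187 CPM), Col11a1 (12.8 CPM) and Col12a1 (5.06 CPM). DTRADQ library 3 without DT was high in Col6a1 (9.03 CPM), and so was control library 4 without DT (11.7 CPM). At day 1, control library 1 was low in Col11a1 (0.92 CPM) and control library 3 high in Col8a1 (5.91 CPM). At day 2, DTRADQ library 1 was low in Col8a1 (3.74 CPM), control library 4 was high in Col1a2 (52.8 CPM) and Col27a1 (2.1 CPM), and control library 2 in Col3a1 (4.46 CPM) and Col12a1 (2.39 CPM). At day 3, DTRADQ library 4 was high in Col3a1 (14.6 CPM).

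The calls of edgeR's test of the interaction are listed here on the log2 scale. That of Col15a1 is no support for a difference, since the gene passed the filter only through the DTRADQ day 3 group. Col6a1 to day 1, Col4a2 to day 2 and Col11a1 from day 1 to day 3 were lost without 1 or more single libraries. So were Col2a1, Col6a2 and Col15a1 from no DT to day 3. The lane label moves with each contrast that holds day 3. The counts of calls to days 1 and 2 lie near the shares of all genes. From no DT to day 1 the genotype difference moved by -1.33 in Col6a1. From no DT to day 2 it moved by 1.52 in Col4a2 and 2.14 in Col14a1. From no DT to day 3 it moved by 2.28 in Col3a1, 1.79 in Col5a2, 2.06 in Col4a1, 2.83 in Col4a2, 2.68 in Col15a1, 2.94 in Col2a1, 1.33 in Col6a2, 2.23 in Col6a3, 2.1 in Col8a1, 1.95 in Col12a1 and 2.3 in Col14a1. From day 1 to day 3 it moved by 2.64 in Col1a1, 2.5 in Col1a2, 2.23 in Col3a1, 3.05 in Col5a2, 2.11 in Col4a1, 2.17 in Col4a2, 4.19 in Col2a1, 2.48 in Col11a1, 2.16 in Col6a1, 1.62 in Col6a3, 3.33 in Col8a1 and 2.63 in Col12a1.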

How the results depend on the processing

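Leaving out 1 library at a time gave 12 to 15 called chains at day 3 (15 with all), 3 to 7 at day 2 (7), 1 at day 1 (1) and 1 to 5 without DT (4). For the interactions it gave 0 to 4 from no DT to day 1 (1), 1 to 6 to day 2 (2), 8 to 12 to day 3 (11) and 11 to 12 from day 1 to day 3 (12). For DT in controls it gave 3 to 6, 1 to 5 and 2 to 6 at days 1, 2 and 3 (4 each), and in DTRADQ 6 to 8 (6), 1 to 6 (4) and 9 to 11 (9). With only the groups compared in the fit, 0 chains were called without DT, 2 at day 1, 0 and 1 in the interactions to days 1 and 2, and 2, 1 and 2 for DT in controls. With voom, 2 were called without DT, 4 at day 1, 4 and 5 in the interactions to days 1 and 2, and 2 in controls at day 1. DESeq2 gave 2 and 4 in those interactions and 7 in controls at day 3. Without the filter 4 were called in the interaction to day 1. With the muscle covariate 2 and 5 were called in the interactions to days 1 and 2, 7 between day 1 and day 3, and 1 in DTRADQ at day 1. Without both control no-DT libraries with the lowest TMM factors, 2 were called without DT, 5 in the interaction to day 1, and 1, 2 and 2 in controls. The cause of these moves was not tested.

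Directions that turned were all of changes that had not passed. Col1a2 at day 2 (0.04) was at -0.0168 with voom, -0.0407 with the replicate block and between -0.12 and 0.3314 without 1 library, and was below 0 without DTRADQ library 3 (-0.0962) or 4 (-0.1168) or control library 3 (-0.0007). Col5a3 at day 3 (0.14) was at -0.0705 with voom and between -0.1995 and 0.415 without 1 library, below 0 without DTRADQ library 4 or control library 3 (-0.0337). Col11a2 at day 3 (-0.11) was between -0.3219 and 0.1348 without 1 library, above 0 without DTRADQ library 1 or 3 (0.012). With the muscle covariate Col11a1 at day 3 was at -0.1716 and Nid1 at -0.056. The ratio of Col4a1 to Col4a2 lay on either side of 0 on the log2 scale without single libraries at day 1 (-0.09 to 0.36) and at day 3 (-0.04 to 0.12).

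With the replicate number as a block, 4 chains were called in the interaction to day 2, 16 at day 3 and, without DT, 4. Same-numbered libraries had correlations of -0.0472 to 0.0402 at day 1, -0.157 to 0.107 at day 2 and 0.083 to 0.123 at day 3. The day 3 correlations were all above 0, and 3 of 4 libraries were closest to their own number, but not every pair was over 0.1, so the numbers were not counted as pairing after DT. Over 97 results on single genes and 1692 settings, 1478 kept direction and side of the threshold. Without the filter, 0 of the 23 chains under it were called by edgeR in any genotype comparison but that of day 3, where Col9a1 was (3, 1 and 0 at an unadjusted p under 0.05 without DT and at days 1 and 2).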
